A study of Mus musculus with 12 samples.

Results

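The transforming growth factor beta (TGF-beta) and activin signaling set held 10 genes out of the 39756 named in the count table: Tgfb1, Tgfb2, Tgfb3, Inhba, Ltbp2, Tgfbi, Tgfbr1, Tgfbr2, Smad7 and Tgif1. Members were taken by symbol, and all 10 were found and had enough counts to be tested, among 17558 genes tested. Poly(A) RNA was sequenced from brain hemispheres of 12 mice (C57BL/6J in the labels, C57BL/6 in the study's methods), with 4 mice in each of 3 groups. By the study's methods these were males of 9 to 10 weeks. Sham mice had sham surgery and received saline, so the study's term for the tissue, ischemic hemispheres, does not describe theirs. In Vehicle mice a filament closed the middle cerebral artery for 45 min and was then withdrawn (transient occlusion, tMCAO), and they also received saline. LJP mice underwent tMCAO and received Laminaria japonica polysaccharide (LJP), a sulfated polysaccharide of a brown alga, by the intragastric route for 14 days before surgery and afterwards. The study went on with LJP-M (200 mg per kg) after comparing doses, the labels name no dose, and the time of collection of the sequenced mice is not given in the sources used here. No sham group given LJP was sequenced among these samples.

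TGF-beta is secreted in a latent form, held by its own propeptide and tethered to the extracellular matrix by latent TGF-beta binding proteins, and must be released before it can act. Active ligand brings together a type II receptor (Tgfbr2) and a type I receptor (Tgfbr1), which phosphorylates Smad2 and Smad3. These enter the nucleus with Smad4, where co-repressors such as Tgif1 limit their output, while Smad7 is induced as an inhibitor of the receptors. Activin A is a dimer of the Inhba product and reaches the same Smads through its own receptors. In the adult brain TGF-beta is known for keeping microglia in their resting state and for its part in scar formation after injury.

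Total counts per mouse lay between 17960353 and 22216315, so that the floor of 3 counts, up to which a count of 0 leaves room, equals 0.129 to 0.173 CPM, the unit used for levels (counts scaled to a common library total). Vehicle mice 1 and 2 stood apart from the other mice of their group. The chi-square per degree of freedom between 2 mice was 4.44 for Vehicle mice 3 and 4, and between 45.2 and 122 for the pairs with mouse 1 or mouse 2. In Sham the pairs gave 2.56 to 6.65 and in LJP 6.25 to 16.5. Marker genes of lung airway and alveolus, a tissue that was not sampled, summed to 8.53 to 13.3 CPM in Sham and Vehicle mice and to 0.358 to 0.669 CPM in LJP mice. Choroid plexus markers varied within every group, from 19.6 to 903 CPM over all mice. The 6 neuronal markers summed to 3600 to 6431 CPM. All samples carried the same batch label. The lung marker sums separated the LJP mice from all other mice, and the cause was not tested. Any difference in handling between these groups cannot be told apart from the treatment.

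The promoter windows of 5 members are shown because they belong to the ligand that rose most (Tgfb1), a ligand with a small change (Tgfb2), the member that fell after tMCAO (Inhba), the member with the largest change (Tgfbi) and the member with the smallest p (Tgif1). Each RefSeq window on GRCm38.p6 holds 250 bases before and 50 bases after an annotated transcription start, so its last 50 bases are transcribed. They are written 5′ to 3′ on the strand of the gene. Tgfb1 lies at chr7:25686752-25687051 (plus strand), Tgfb2 at chr1:186705940-186706239 (minus), Inhba at chr13:16011601-16011900 (plus), Tgfbi at chr13:56609336-56609635 (plus) and the most upstream of 5 windows of Tgif1 at chr17:70853483-70853782 (minus). The Tgfb2 and Inhba windows lie inside the span over which these genes were counted, since that span reaches further upstream. Capitals mark matches to the letters searched on both strands.
Tgfb1: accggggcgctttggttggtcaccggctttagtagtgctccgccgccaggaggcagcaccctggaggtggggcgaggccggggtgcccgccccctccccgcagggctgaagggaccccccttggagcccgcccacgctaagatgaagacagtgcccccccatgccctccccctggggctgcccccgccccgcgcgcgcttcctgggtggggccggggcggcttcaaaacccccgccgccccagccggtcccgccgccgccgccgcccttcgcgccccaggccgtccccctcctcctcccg
Tgfb2: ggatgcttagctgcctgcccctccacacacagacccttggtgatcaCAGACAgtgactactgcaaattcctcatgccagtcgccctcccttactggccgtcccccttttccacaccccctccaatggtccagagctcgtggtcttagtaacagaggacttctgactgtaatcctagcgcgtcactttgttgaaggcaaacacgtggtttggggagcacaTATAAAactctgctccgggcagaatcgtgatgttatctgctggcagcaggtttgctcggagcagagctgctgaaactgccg
Inhba: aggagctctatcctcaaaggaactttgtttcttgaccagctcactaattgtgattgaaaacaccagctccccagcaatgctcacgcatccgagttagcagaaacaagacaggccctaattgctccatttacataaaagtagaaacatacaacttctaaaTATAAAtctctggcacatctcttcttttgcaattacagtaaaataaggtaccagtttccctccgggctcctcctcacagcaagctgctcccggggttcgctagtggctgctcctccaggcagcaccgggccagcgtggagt
Tgfbi: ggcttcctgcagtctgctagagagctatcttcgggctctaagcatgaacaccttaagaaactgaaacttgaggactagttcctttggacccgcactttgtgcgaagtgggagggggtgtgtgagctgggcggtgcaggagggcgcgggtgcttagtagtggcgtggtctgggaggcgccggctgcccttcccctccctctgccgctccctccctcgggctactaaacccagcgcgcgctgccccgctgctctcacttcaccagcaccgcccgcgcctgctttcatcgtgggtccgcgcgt
Tgif1: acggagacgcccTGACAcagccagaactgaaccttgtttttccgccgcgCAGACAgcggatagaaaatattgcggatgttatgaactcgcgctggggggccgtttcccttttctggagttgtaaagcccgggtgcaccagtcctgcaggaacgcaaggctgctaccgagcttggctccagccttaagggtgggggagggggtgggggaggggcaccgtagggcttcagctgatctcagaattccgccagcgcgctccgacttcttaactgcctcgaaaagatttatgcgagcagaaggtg

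The letters searched were the SMAD palindrome GTCTAGAC, the SMAD element CAGACA, the AP-1 site TGACTCA, the TGIF site TGTCA, the STAT site TTCNNNGAA and the TATA box TATAAA. Windows were held for 8 of the 10 members, not for Tgfb3 and Smad7. The Tgif1 window shown contained CAGACA 201 bases before the start and TGTCA, on the other strand, 238 bases before it. Of the other 4 Tgif1 windows, the next contained CAGACA once and TGTCA 2 times, the third TGTCA once, the fourth none of the 6 and the fifth TGTCA 3 times and the STAT letters once. The Tgfb2 window contained CAGACA at 204 and TATAAA at 31 bases before the start, and the Inhba window TATAAA at 91 bases before it. The more downstream of 2 windows of Tgfbr1 contained CAGACA and TGTCA, and the other none of the 6. The windows of Tgfb1, Tgfbr2, Tgfbi and Ltbp2 contained none of the 6 either. Among all 32851 windows of mouse genes, 21.0% held CAGACA, 45.4% TGTCA, 13.6% TATAAA, 8.30% the STAT letters, 5.20% the AP-1 letters and 0.213% the palindrome, so the matches found are common ones. The Tgfb1 window was rich in G and C (77.0%, with 30 CpG), against a median of 52.7% and 7 CpG over all windows. The Inhba window lay at 47.7% with 7 CpG. A match describes letters only, and no binding was measured.

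Ischemia and reperfusion were addressed by comparing Vehicle with Sham. Of the 10 genes, 7 were higher in Vehicle and 1 was lower at an adjusted p below 0.05 (edgeR's quasi-likelihood test, Benjamini-Hochberg over 17558 genes). Tgfbi, Ltbp2, Tgif1, Tgfb1 and Tgfbr2 rose between 4.81-fold and 25.0-fold in mean CPM, Tgfbr1 and Tgfb2 rose by less, Inhba fell, and Tgfb3 and Smad7 did not pass. Over all genes tested, 22.7% were called higher and 17.3% lower. Values of the 4 Vehicle mice and the 4 Sham mice did not overlap for 6 members, 5 higher and 1 lower, against 39.5% of all genes tested. The median log2 fold change was 1.43 over the members and 0.00 over all genes.

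**Figure D1:**
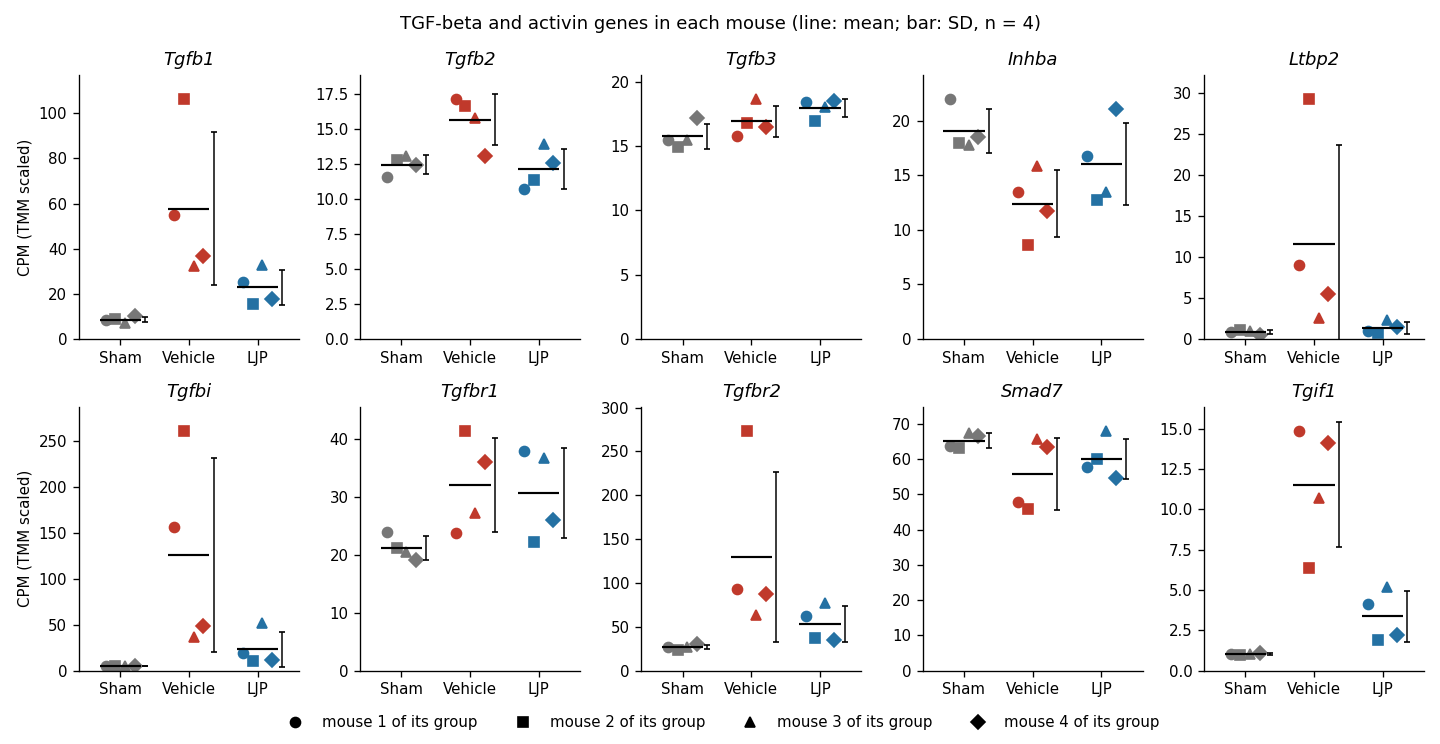
CPM of the 10 genes (vertical axes from 0, one scale per gene) in each mouse of the Sham, Vehicle and LJP groups. Points are mice, with 1 symbol per mouse number within a group, lines are means and bars are SD (n = 4), with the Vehicle bar of Ltbp2 ending at the axis. Tgif1, Tgfb1, Tgfbr2, Tgfbi and Ltbp2 are higher in all 4 Vehicle mice than in any Sham mouse, and Tgfb3 stays between 14.9 and 18.7 CPM in all 12 mice.

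**Figure D2:**
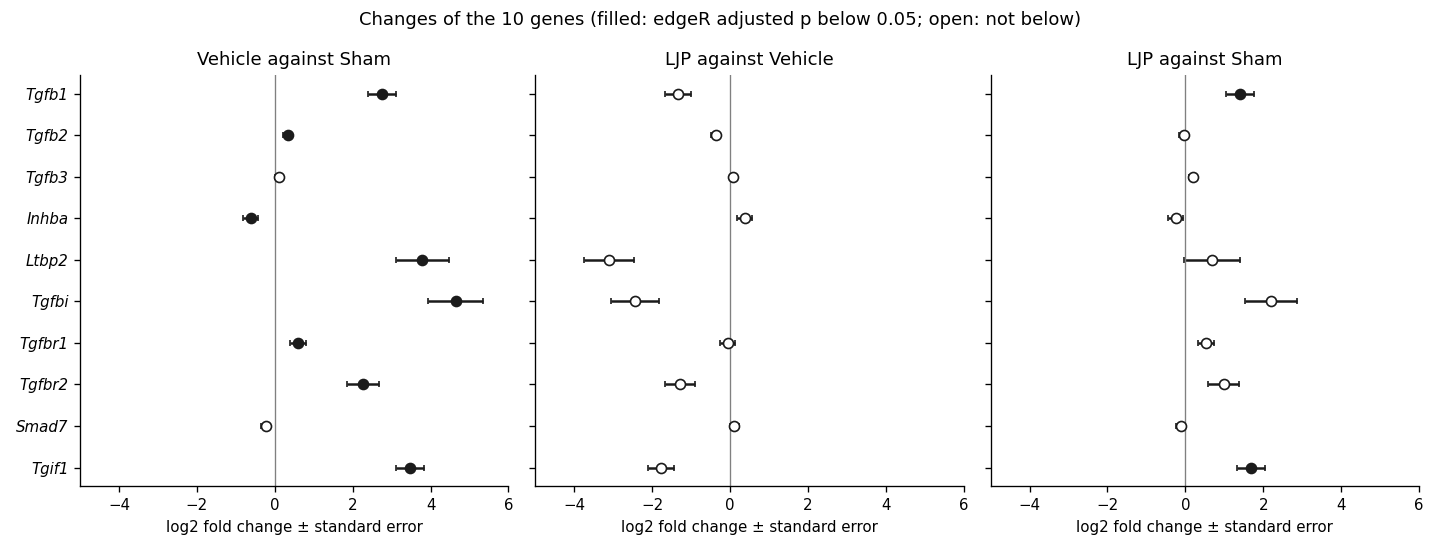
Log2 fold changes of the 10 genes with their standard errors in the 3 comparisons, each panel on the same horizontal scale. Filled points have an edgeR adjusted p below 0.05, which 8 genes reach for Vehicle against Sham, 0 for LJP against Vehicle and 2 for LJP against Sham.

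The 3 TGF-beta ligands differed in their response. Tgfb1 (Entrez gene 21803, chr7:25687002-25705077) encodes the isoform made chiefly by microglia and other myeloid cells in the brain. Its level was 8.42, 8.61, 7.12 and 10.1 CPM in Sham mice 1 to 4, 55.1, 106, 32.4 and 36.9 CPM in Vehicle mice 1 to 4 and 25.3, 15.6, 32.6 and 17.7 CPM in LJP mice 1 to 4, the order used for every gene below. The 3 groups therefore fell in the order Sham, LJP, Vehicle by mean, with no overlap of Sham with either tMCAO group and LJP mouse 3 inside the Vehicle range. Vehicle exceeded Sham by 2.75 on the log2 scale (SE 0.36, edgeR adjusted p = 0.000277), and by 2.01 without Vehicle mice 1 and 2.

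Tgfb2 (Entrez gene 21808, chr1:186622787-186709697), an isoform of neurons and glia, moved far less. It measured 11.5, 12.7, 13.1 and 12.4 CPM in Sham, 17.2, 16.7, 15.8 and 13.1 CPM in Vehicle and 10.7, 11.3, 13.9 and 12.5 CPM in LJP. Vehicle mouse 4 lay within the Sham range and the other 3 Vehicle mice above every Sham and LJP mouse. The log2 fold change of Vehicle against Sham was 0.33 (SE 0.12, edgeR adjusted p = 0.0391). This call was lost when Vehicle mouse 1, 2 or 3, LJP mouse 4 or any Sham mouse was left out.

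Tgfb3 (Entrez gene 21809, chr12:86056743-86079041), the third isoform, had group means of 15.8 ± 0.989, 17.0 ± 1.22 and 18.0 ± 0.708 CPM (SD, n = 4) in Sham, Vehicle and LJP. All 3 groups overlapped. The 95% interval of Vehicle against Sham ran from −0.09 to 0.30 on the log2 scale (edgeR adjusted p = 0.371).

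Per length of transcript, Tgfb3 was the highest of the 3 ligands in Sham at 4.66 ± 0.292 RPKM (CPM per kilobase of transcript; SD, n = 4), followed by Tgfb1 at 3.94 ± 0.562 and Tgfb2 at 1.40 ± 0.0752 RPKM. The ranges of Tgfb3 (4.41 to 5.08) and Tgfb1 (3.28 to 4.65) overlapped in Sham. In Vehicle the order changed to Tgfb1 at 26.5 ± 15.6, Tgfb3 at 5.01 ± 0.360 and Tgfb2 at 1.76 ± 0.203 RPKM, without overlap between any of the 3. The same order held in LJP, where Tgfb1 measured 10.5 ± 3.56 RPKM and Tgfb3 5.32 ± 0.209 RPKM.

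Inhba (Entrez gene 16323, chr13:16004256-16031609), which encodes the activin A subunit and is induced by activity in neurons, was the member that fell. It measured 22.0, 18.0, 17.8 and 18.5 CPM in Sham, 13.5, 8.59, 15.8 and 11.7 CPM in Vehicle and 16.8, 12.8, 13.5 and 21.1 CPM in LJP. All 4 Vehicle mice lay below all 4 Sham mice, and 1 of the 4 LJP mice, mouse 4, lay within the Sham range. The log2 fold change of Vehicle against Sham was −0.62 (SE 0.19, edgeR adjusted p = 0.0226). Without Sham mouse 1, the highest of its group, the adjusted p was 0.0705 (edgeR), and without Vehicle mice 1 and 2 it was 0.0657 (edgeR). Neuronal markers also fell in part, with 3 of 6 called lower and sums of 5656 to 6313 CPM in Sham and 3600 to 5583 CPM in Vehicle, and their part in the Inhba result was not tested. In bulk tissue fewer cells of a type and less RNA per cell cannot be told apart. An antisense pseudogene, B230303A05Rik, overlaps Inhba and held 31 to 84 counts per mouse. The strand setting of the counting is not given in the sources used here, so reads of the pair may be shared.

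Ltbp2 (Entrez gene 16997, chr12:84783212-84876558) belongs to the latent TGF-beta binding proteins but, unlike its relatives, is known as a microfibril protein that does not bind latent TGF-beta. It had 14, 19, 18 and 10 counts in Sham, 198, 681, 48 and 102 counts in Vehicle and 21, 14, 43 and 25 counts in LJP. In CPM these were 0.518 to 1.04 in Sham, 2.58 to 29.3 in Vehicle and 0.716 to 2.34 in LJP. Every Vehicle mouse exceeded every Sham and every LJP mouse, although Vehicle mouse 3 exceeded LJP mouse 3 by only 5 counts. The log2 fold change of Vehicle against Sham was 3.79 (SE 0.69, edgeR adjusted p = 0.00159), and it was 2.76 without Vehicle mouse 2 and 2.26 without Vehicle mice 1 and 2. An antisense long noncoding RNA, D030025P21Rik, overlaps the gene and averaged 2 counts in Sham, 22 in Vehicle and 0.75 in LJP.

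Tgfbi (Entrez gene 21810, chr13:56609586-56639359), a matrix protein first known as a gene induced by TGF-beta and also made by macrophages, showed the largest change of the set. It measured 4.84, 5.07, 4.82 and 5.39 CPM in Sham, 157, 262, 36.5 and 48.6 CPM in Vehicle and 19.6, 10.2, 51.8 and 11.5 CPM in LJP. The lowest tMCAO mouse, LJP mouse 2, was still above every Sham mouse, and LJP mouse 3 was above Vehicle mice 3 and 4. Vehicle exceeded Sham by 4.65 on the log2 scale (SE 0.71, edgeR adjusted p = 0.000632), by 4.00 without Vehicle mouse 2 and by 3.07 without Vehicle mice 1 and 2. In the last of these fits Tgif1 changed more than Tgfbi, by 3.57.

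The receptors responded unequally. Tgfbr2 (Entrez gene 21813, chr9:116087695-116175363), the type II receptor that binds the ligand, measured 26.6, 24.1, 26.9 and 30.2 CPM in Sham, 93.2, 274, 63.9 and 87.7 CPM in Vehicle and 62.9, 37.4, 77.1 and 35.4 CPM in LJP. All 8 tMCAO mice were above all Sham mice, and Vehicle mouse 2 was far above the rest. The log2 fold change of Vehicle against Sham was 2.27 (SE 0.41, edgeR adjusted p = 0.00163), 1.59 without Vehicle mouse 2 and 1.49 without Vehicle mice 1 and 2.

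Tgfbr1 (Entrez gene 21812, chr4:47353222-47414926), the type I receptor kinase, measured 24.0, 21.2, 20.4 and 19.1 CPM in Sham, 23.7, 41.4, 27.2 and 35.9 CPM in Vehicle and 37.8, 22.2, 36.7 and 26.0 CPM in LJP. Vehicle mouse 1 lay within the Sham range, as did LJP mouse 2. The log2 fold change of Vehicle against Sham was 0.60 (SE 0.20, edgeR adjusted p = 0.0300), and the call was lost without Sham mouse 2, 3 or 4, Vehicle mouse 2 or Vehicle mouse 4. Per length, Tgfbr2 and Tgfbr1 stood at 5.63 ± 0.526 and 3.44 ± 0.334 RPKM in Sham (SD, n = 4), and at 27.1 ± 20.2 and 5.20 ± 1.31 RPKM in Vehicle.

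The nuclear and feedback genes were Tgif1 and Smad7. Tgif1 (Entrez gene 21815, chr17:70844205-70853532), a homeodomain co-repressor of Smad-driven transcription, had 18, 18, 19 and 21 counts in Sham, 328, 149, 199 and 262 counts in Vehicle and 91, 37, 96 and 40 counts in LJP. The corresponding levels were 0.981 to 1.09 CPM in Sham, 14.9, 6.40, 10.7 and 14.1 CPM in Vehicle and 4.13, 1.89, 5.22 and 2.23 CPM in LJP. The 3 groups did not overlap with one another. Vehicle exceeded Sham by 3.47 on the log2 scale (SE 0.36, edgeR adjusted p = 9.85e-05), the smallest p of the set, and Vehicle mouse 2, the highest for Tgfb1, Tgfbr2, Tgfbi and Ltbp2, was the lowest of its group for Tgif1.

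Smad7 (Entrez gene 17131, chr18:75367365-75395935), the inhibitory Smad, had the highest level per length of the set in Sham at 14.7 ± 0.466 RPKM (SD, n = 4). It measured 63.0 to 67.3 CPM in Sham, 47.8, 45.9, 65.6 and 63.3 CPM in Vehicle and 54.7 to 68.0 CPM in LJP. Vehicle mice 1 and 2 were low and the other 2 lay at the Sham level. The log2 fold change of Vehicle against Sham was −0.23 with a 95% interval of −0.48 to 0.02 (edgeR adjusted p = 0.131). It became −0.32 and passed (edgeR adjusted p = 0.0402) without Vehicle mouse 3.

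The mice differed within groups in a way that several members shared. Among the Vehicle mice, mouse 2 was the highest for Tgfb1, Tgfbr2, Tgfbi, Ltbp2 and Tgfbr1. Among the LJP mice, mice 1 and 3 were above mice 2 and 4 for Tgfb1, Tgfbr1, Tgfbr2, Tgfbi and Tgif1. Summed markers of other cell types also differed between the mice. The 6 microglial markers, of which 5 were called higher in Vehicle than in Sham, summed to 200 to 208 CPM in Sham, to 521, 1022, 756 and 829 CPM in Vehicle and to 791, 420, 815 and 443 CPM in LJP. Markers of infiltrating monocytes and macrophages, with 5 of 5 tested called higher, summed to 10.2 to 16.1 CPM in Sham, to 176, 294, 51.5 and 97.7 CPM in Vehicle and to 58.3, 18.3, 87.5 and 19.3 CPM in LJP, and Ly6c2 was at or under 3 counts in every Sham mouse.

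Endothelial markers (4 of 5 higher) summed to 161 to 176 CPM in Sham, to 622, 1301, 239 and 306 CPM in Vehicle and to 157 to 219 CPM in LJP. Fibroblast and meningeal markers (4 of 5 tested higher) summed to 59.6 to 65.2 CPM in Sham, to 104, 903, 119 and 179 CPM in Vehicle and to 58.7 to 95.1 CPM in LJP. Astrocyte markers (2 of 5 higher) summed to 862 to 901 CPM in Sham, to 2213, 3665, 2643 and 3094 CPM in Vehicle and to 3021, 2025, 2779 and 1843 CPM in LJP. Most of this difference came from Gfap, without which the other 4 summed to 711 to 754 CPM in Sham, to 757, 811, 874 and 907 CPM in Vehicle and to 789 to 909 CPM in LJP. Pericyte markers (2 of 5 higher) summed to 174 to 194 CPM in Sham, to 181, 348, 211 and 188 CPM in Vehicle and to 164 to 205 CPM in LJP. Vehicle mouse 2 was the highest of its group for all 6 of these marker lists, for astrocytes only with Gfap included. Vehicle mouse 1 was the lowest of its group for the microglial, astrocyte, fibroblast and pericyte sums, although it was next to mouse 2 for Tgfb1, Tgfbr2, Tgfbi and Ltbp2 and the highest for Tgif1. Neutrophil markers were at or under 3 counts in every Sham mouse for all 6 genes and summed to 160, 39.8, 0.754 and 4.63 CPM in Vehicle and 0.256 to 0.925 CPM in LJP. Oligodendrocyte markers (1 of 5 higher, 2 with a negative log2 fold change) summed to 4109 to 5004 CPM in Sham, 5047 to 5732 CPM in Vehicle and 4088 to 5001 CPM in LJP. Of 5 T cell markers only Cd4 had enough counts to be tested, and it was lower in Vehicle than in Sham (log2 fold change −2.54, edgeR adjusted p = 0.000150). The part of these cell types in the changes of the members was not tested. Without Vehicle mice 1 and 2, a choice made after seeing the data, 6 members were still called between Vehicle and Sham, namely Tgfb1, Tgfbr1, Tgfbr2, Tgif1, Tgfbi and Ltbp2, against 29.7% of all genes tested in that fit.

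**Figure D3:**
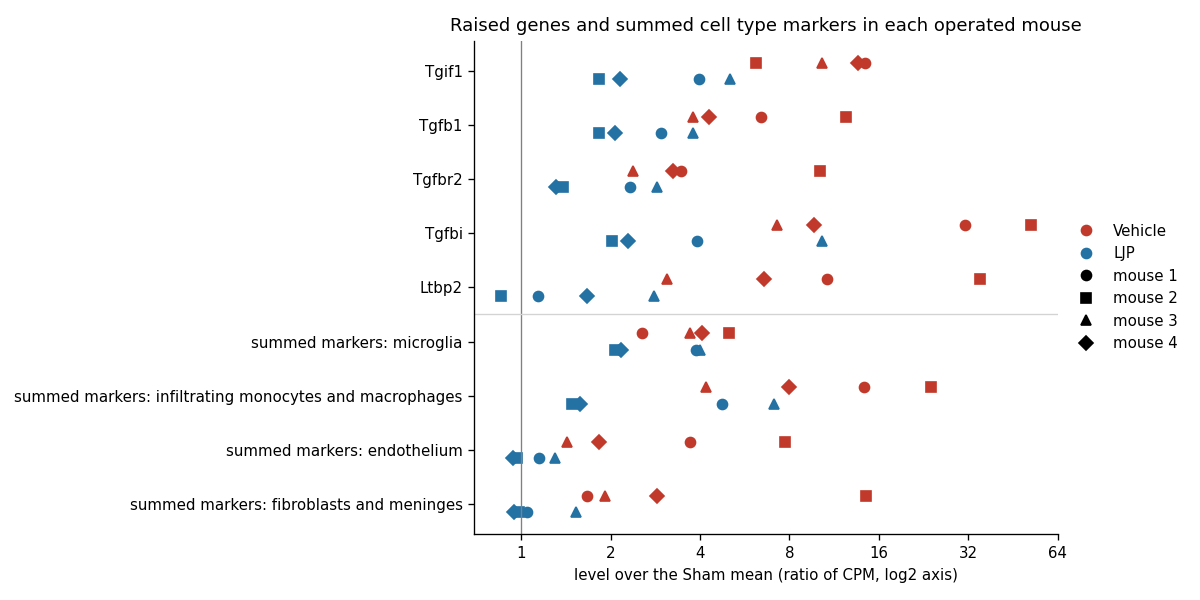
Level of 5 raised genes and of 4 summed marker lists in each Vehicle and LJP mouse, as a ratio to the Sham mean on a log2 axis (ratio 1 is the Sham mean). Colours are groups and symbols are mice. Vehicle mouse 2 is at the right for Tgfb1, Tgfbr2, Tgfbi, Ltbp2 and all 4 marker lists, and at the left of the Vehicle mice for Tgif1.

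The 5 other genes whose log2 CPM over the 12 mice was most like that of Tgif1 were Liph (Pearson r = 0.957), Lbh (0.950), S100a16 (0.939), Pea15a (0.935) and Clu (0.935), the clusterin gene of astrocytes. The correlation ranks 17548 genes over mice that share 3 groups, and is a description. Their log2 fold changes of Vehicle against Sham were 2.10, 0.46, 1.60, 0.58 and 0.52, each smaller than that of Tgif1.

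Around the 10 members, 103 other genes of the pathway were listed in 9 groups by role, and 96 had enough counts to be tested. Between Vehicle and Sham 47 of the 96 rose, 13 fell and 36 did not pass, with a median log2 fold change of 0.64. These counts, and those of the groups below, stand against 22.7% of all genes tested called higher and 17.3% called lower. The groups differed in their counts. Of 19 TGF-beta target genes tested, 17 rose and 0 fell, with a median log2 fold change of 2.58, and the other 2, Klf10 and Acta2, did not pass. Runx1, a transcription factor of myeloid cells, rose from 1.49 ± 0.471 to 21.2 ± 12.2 CPM (SD, n = 4; log2 fold change 3.84, edgeR adjusted p = 0.000139). Timp1, a metalloproteinase inhibitor, rose from 0.977 ± 0.266 to 51.0 ± 45.3 CPM (log2 fold change 5.71, edgeR adjusted p = 0.000338). The list held Col1a1 and Col1a2, which are also in the fibroblast list above, and its genes answer to other signals as well.

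Of 12 genes for latency and activation, 9 rose and 0 fell. Nrros, which holds latent TGF-beta on microglia, rose from 7.07 ± 0.642 to 18.5 ± 6.06 CPM (log2 fold change 1.39, edgeR adjusted p = 0.000687). Ltbp1, a binding protein that tethers the latent complex, rose from 8.57 ± 0.494 to 15.3 ± 3.33 CPM (log2 fold change 0.83, edgeR adjusted p = 0.00100). Ltbp4, a further binding protein, measured 95.6 ± 5.92 CPM in Sham and 76.6 ± 14.4 CPM in Vehicle (edgeR adjusted p = 0.0567).

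Among 6 other ligands 2 rose and 2 fell. Inhbb, the subunit of activin B, rose from 8.40 ± 0.867 to 31.7 ± 22.7 CPM (log2 fold change 1.92, edgeR adjusted p = 0.00441), whereas Inha, the inhibin alpha subunit, fell from 27.8 ± 1.72 to 20.6 ± 2.06 CPM (log2 fold change −0.43, edgeR adjusted p = 0.0131). Activin and inhibin subunits therefore moved in both directions, with Inhba falling and Inhbb rising. Gdf10, a TGF-beta family ligand known from axonal sprouting after stroke, fell from 9.62 ± 0.896 to 5.23 ± 1.79 CPM (log2 fold change −0.88, edgeR adjusted p = 0.00784). Gdf15, a stress-induced family member, had 0, 5, 2 and 1 counts in Sham and 136, 136, 305 and 13 in Vehicle (edgeR adjusted p = 0.00480).

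Of 10 other receptors and co-receptors 3 rose and 3 fell. Endoglin (Eng), a co-receptor of endothelium, rose from 30.2 ± 1.37 to 103 ± 69.5 CPM (log2 fold change 1.77, edgeR adjusted p = 0.00284), and Bambi, a decoy receptor, from 3.19 ± 0.394 to 5.70 ± 2.39 CPM (0.84, edgeR adjusted p = 0.0214). Acvr1c, a type I receptor for activin B and Nodal, fell from 31.5 ± 4.45 to 10.7 ± 4.84 CPM (log2 fold change −1.56, edgeR adjusted p = 0.00118). Acvr2b, an activin type II receptor, fell by 0.39 on the log2 scale (edgeR adjusted p = 0.0280). Of 4 extracellular antagonists tested, Fstl1 and Fstl3 rose (log2 fold changes 1.82 and 1.12) and follistatin (Fst), which binds activin, fell from 3.33 ± 0.396 to 1.37 ± 0.386 CPM (−1.29, edgeR adjusted p = 0.00159).

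Intracellular genes moved in both directions. Of 11 Smads and nuclear co-regulators 2 rose and 4 fell, with a median log2 fold change of −0.13. Smad6, the other inhibitory Smad, rose (1.21, edgeR adjusted p = 0.00822) together with Tgif2, the paralog of Tgif1 (0.70, edgeR adjusted p = 0.0114). Ppm1a, a Smad phosphatase, fell (−0.50, edgeR adjusted p = 0.00159), as did Trim33, a Smad4 regulator (−0.41, edgeR adjusted p = 0.00462). Smad2, Smad3 and Smad4 did not pass, with edgeR adjusted p of 0.354, 0.807 and 0.284. Of 6 ubiquitin ligases and related genes, with a share called no higher than that over all genes, 0 rose and 2 fell, Nedd4l (−0.65, edgeR adjusted p = 0.00115) and Usp15 (−0.58, edgeR adjusted p = 0.00930), and Smurf1 differed by 0.11 (edgeR adjusted p = 0.225).

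In the bone morphogenetic protein (BMP) branch, which signals through other Smads, 7 of 20 genes rose and 1 fell, a share called in either direction (40%) at the level over all genes. Id3 and Id1, its usual target genes, rose by 1.42 and 1.34 on the log2 scale (edgeR adjusted p = 0.00193 and 0.00430). The type II receptor Bmpr2 differed by −0.22 (edgeR adjusted p = 0.0610). Of 8 microglial genes that depend on TGF-beta in the resting state, 5 rose and 0 fell. Olfml3 rose from 15.9 ± 1.14 to 58.6 ± 22.8 CPM (1.88, edgeR adjusted p = 0.00155), while Siglech measured 9.93 ± 0.706 and 8.20 ± 4.84 CPM. Microglial markers in general rose as given above, and P2ry12 is in both lists.

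**Figure D4:**
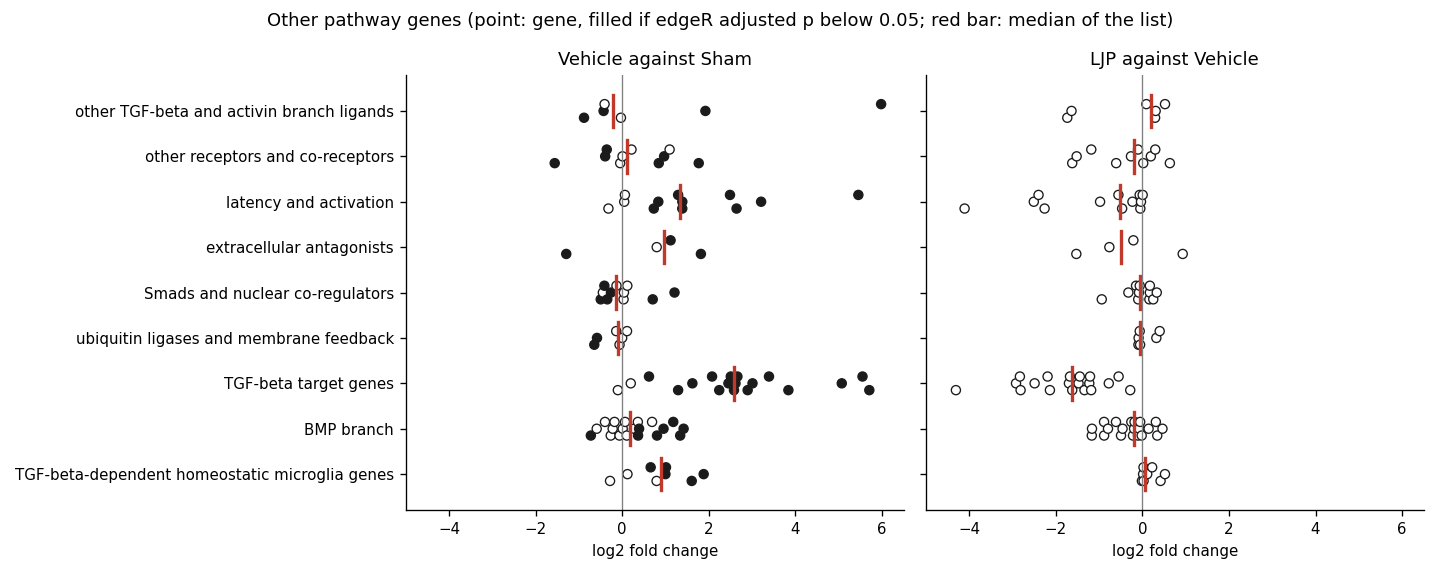
Log2 fold changes of the 96 other pathway genes by role, for Vehicle against Sham and LJP against Vehicle. Points are genes, filled where the edgeR adjusted p is below 0.05, and red bars are list medians. The 19 target genes have the highest median in the first panel (2.58) and the lowest in the second (−1.62), where no point is filled.

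The effect of the polysaccharide was addressed by comparing LJP with Vehicle. Of the 10 members 0 passed the test, against 0.0228% of all genes (4 of 17558; edgeR), and 3 of those 4 genes were lung markers of the list given above. Tgfbi, Ltbp2, Tgif1, Tgfb1 and Tgfbr2 had mean CPM between 2.44-fold and 8.58-fold lower in LJP than in Vehicle. The same Vehicle mice enter this comparison and that with Sham with opposite sign, so that genes picked for a high Vehicle mean are favoured to lie lower in LJP by that choice, and a lower mean of such genes is a description. At an unadjusted p below 0.05 there were 6 members, Tgfb1, Tgfb2, Tgfbr2, Tgif1, Tgfbi and Ltbp2, all lower in LJP, against 29.7% of all genes in either direction. DESeq2, run on the same counts, called those 6 and 12.8% of all genes. The study's methods name DESeq2 with an unadjusted p below 0.01 and an absolute log2 fold change over 0.58. Applied here to the edgeR fit, these thresholds took 5 of the 6 members and 6.97% of all genes, leaving out Tgfb2. With low counts kept, edgeR called 4 members and 1.96% of all genes. The number of calls turned on single Vehicle mice. Without Vehicle mouse 3, edgeR called 5 members and 21.6% of all genes, without Vehicle mouse 4 it called 6 members and 11.7%, and without Vehicle mouse 2 it called Tgif1 alone of the members and 0.0282% of all genes. Without Vehicle mice 1 and 2 it called Tgif1 and 0.0443% of all genes. Groups did not overlap for 2 members, Tgif1 and Ltbp2, both lower in LJP, which is 2 of 10 against 11.7% of all genes tested.

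Tgif1 was lower in LJP by 3.42-fold in mean CPM (log2 fold change −1.77, SE 0.32, edgeR adjusted p = 0.0678, exact permutation p = 0.0286, the smallest that 4 against 4 mice allow). Every LJP mouse was below every Vehicle mouse, with 5.22 CPM as the highest LJP and 6.40 CPM as the lowest Vehicle value. Its log2 fold change stayed between −2.05 and −1.57 when any 1 mouse was left out, and was −1.88 without Vehicle mice 1 and 2 (edgeR adjusted p = 0.0254). Across all settings run, its adjusted p ranged from 0.000196 (DESeq2) to 0.208 (edgeR).

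Ltbp2 differed by −3.11 on the log2 scale (SE 0.65, edgeR adjusted p = 0.0678, exact permutation p = 0.0286). Tgfbi differed by −2.44 (SE 0.62, edgeR adjusted p = 0.0678, exact permutation p = 0.0857). Tgfb1 differed by −1.34 (SE 0.34, edgeR adjusted p = 0.0678, exact permutation p = 0.0571). Tgfbr2 differed by −1.29 (SE 0.40, edgeR adjusted p = 0.0772, exact permutation p = 0.0571). These 4 differences rested in part on Vehicle mouse 2, without which they were −2.08, −1.80, −0.86 and −0.62, and without Vehicle mice 1 and 2 they were −1.59, −0.87, −0.60 and −0.51. In each of the 4, LJP mouse 3 was the highest of its group, and without it Tgfbi differed by −3.19.

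Tgfb2 was lower in LJP by 0.37 on the log2 scale with an SE of 0.12 (edgeR adjusted p = 0.0792), and its LJP mean of 12.1 ± 1.43 CPM was close to the Sham mean of 12.5 ± 0.670 CPM (SD, n = 4). Inhba had a higher mean in LJP, 16.0 ± 3.79 against 12.4 ± 3.04 CPM (log2 fold change 0.37, 95% interval −0.05 to 0.79, edgeR adjusted p = 0.211). Neuronal markers summed to 5373 to 6431 CPM in LJP and 3600 to 5583 CPM in Vehicle, with 0 of 6 called in edgeR. Their part in the Inhba difference was not tested. Tgfbr1 measured 32.0 ± 8.08 CPM in Vehicle and 30.7 ± 7.77 CPM in LJP, with a 95% interval of the difference from −0.49 to 0.36 on the log2 scale (edgeR adjusted p = 0.847). The intervals for Tgfb3 (−0.10 to 0.28) and Smad7 (−0.14 to 0.36) included 0 as well.

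Among the 96 other pathway genes 0 passed for LJP against Vehicle in edgeR and 35 in DESeq2, which called 12.8% of all genes, with a median log2 fold change of −0.21. All 19 target genes had negative log2 fold changes (median −1.62, 16 called by DESeq2), Timp1 with 7.27 ± 2.88 CPM and Runx1 with 6.92 ± 2.44 CPM in LJP. The 8 TGF-beta-dependent microglial genes had a median of 0.07, and Olfml3 measured 58.2 ± 24.2 CPM in LJP, against the 58.6 CPM of Vehicle. Eng, Fstl1, Inhbb and Id1 had LJP means of 35.9, 33.8, 9.56 and 16.0 CPM, all nearer to Sham than to Vehicle. Endothelial and fibroblast marker sums moved the same way, as given above, and their part was not tested.

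LJP was compared with Sham for what remained after treatment. Of the 10 members 2 were called, both higher in LJP, against 4.75% of all genes called in either direction (edgeR). Tgif1 stood 3.25-fold above Sham in mean CPM (log2 fold change 1.69, SE 0.36, edgeR adjusted p = 0.0182) and Tgfb1 2.66-fold (1.41, SE 0.35, edgeR adjusted p = 0.0404). Both calls were lost when LJP mouse 1, LJP mouse 3 or any 1 Sham mouse was left out, while 4 members were called without Vehicle mouse 2 (Tgfbi and Tgfbr2 in addition) and 5 without Vehicle mice 1 and 2 (Tgfbr1 as well). In those fits the share of all genes called was 13.3% and 24.3%. A fit of only the LJP and Sham mice called 5 members and 23.8% of all genes. Tgfbi was 4.63-fold higher in mean CPM (log2 fold change 2.21, SE 0.67, edgeR adjusted p = 0.0864, DESeq2 adjusted p = 0.0264) and Tgfbr2 1.97-fold (0.98, SE 0.40, edgeR adjusted p = 0.206). Without LJP mouse 3 the log2 fold change of Tgfbi was 1.45. DESeq2 and the study's thresholds on the edgeR fit each took 3 members, Tgfb1, Tgif1 and Tgfbi, with 7.65% and 5.9% of all genes. Groups did not overlap for Tgif1, Tgfb1, Tgfbi and Tgfbr2, all higher in LJP, against 24.9% of all genes. Ltbp2 differed by 0.68 (95% interval −0.87 to 2.23, edgeR adjusted p = 0.672), and Inhba by −0.25 (−0.67 to 0.16, edgeR adjusted p = 0.532).

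Of the 96 other pathway genes 10 were higher in LJP than in Sham and 0 lower, against the 4.75% of all genes given above, and DESeq2 called 18 of the 96 and 7.65% of all genes. They included Ltbp1, Nrros, Itgb5, Runx1, Timp1 and the microglial genes Tmem119, Sall1, Olfml3 and Cx3cr1. Nrros and Ltbp1 stood at 12.6 ± 2.51 and 13.0 ± 0.659 CPM in LJP. Comparisons of LJP and of Vehicle with Sham share the Sham mice.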

How the data were processed

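RNA sequencing of 12 mouse hemispheres (4 each in Sham, Vehicle and LJP, grouped by the labels) was analysed from 1 table of 39756 genes. The authors deposited raw counts per gene and mouse, without normalization. The submitters' processing notes name featureCounts, DESeq2, GRCm39 and mm10, with no roles given, and the aligner and strand setting are not given in the sources used here. Positions of all 10 members in the table equal those of RefSeq on GRCm38.p6.

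Counts were fitted in R 4.3.3 with edgeR 4.0.16 (filterByExpr, TMM factors, quasi-likelihood test, 1 coefficient per group, all 12 mice), and adjusted by Benjamini-Hochberg over 17558 genes, with calls at an adjusted p below 0.05. SE is the log2 fold change divided by the root of F. CPM used TMM-scaled totals, RPKM the table's gene lengths, and permutation tests were exact, two-sided and on log2 CPM with a prior count of 2. The labels do not describe how the replicates of a group were obtained, so p-values measure only the spread between these samples. No 2 mice of a group differed by less than sampling noise (chi-square per degree of freedom at least 2.56). Floors cover counting error only. Scripts were tested on simulated data.

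All members are described. Of each other pathway list, the 2 genes with the smallest p in each direction between Vehicle and Sham were named, and any called between LJP and Vehicle, with Smad2, Smad3, Smad4, Klf10, Acta2 and those called between LJP and Sham named after their values were seen. Some genes that this rule takes are not reported here. The members and lists were chosen with earlier results of these data known. Alternatives were DESeq2 1.42.0, RLE or library size scaling, no filter, fits of 2 groups, a replicate block and leaving out mice. The study's thresholds, applied to the edgeR fit, were a further alternative. Assays other than RNA sequencing were not analysed here.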

Additional observations from a re-analysis of the deposited data

Results flagged for a closer look

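In 2 of 30 groups of 4 mice (10 genes in 3 groups), 1 mouse lay apart from the others by Dixon's ratio, where chance gives about 1.5. For Tgfbr2, Vehicle mouse 2 had 274 CPM against 63.9 to 93.2 CPM in the other 3 Vehicle mice, with a ratio of 0.860. For Inhba, Sham mouse 1 had 22.0 CPM against 17.8 to 18.5 CPM in the other 3 Sham mice, with a ratio of 0.836.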

How the results depend on the processing

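Between Vehicle and Sham, the count of members called (8) lay between 6 and 8 and that of other pathway genes (60) between 49 and 65 under every alternative, leaving out each mouse included, where 29.5% to 45.9% of all genes were called. Between LJP and Vehicle, members called (0) became 6 under DESeq2, 4 where low counts were kept, 5 with the study's thresholds and 1 without Vehicle mice 1 and 2, and 0 to 6 when 1 mouse was left out. The other pathway genes (0) became 35, 25, 31 and 2 in the same order, and 0 to 44 when 1 mouse was left out, where 0.0167% to 21.6% of all genes were called. Between LJP and Sham, members called (2) became 3 with DESeq2 and with the study's thresholds, 5 in the fit of only those groups, 5 without Vehicle mice 1 and 2 and 0 to 4 when 1 mouse was left out. The other pathway genes (10) became 18 with DESeq2, 40 in the fit of only those groups, 41 without Vehicle mice 1 and 2 and 4 to 22 when 1 mouse was left out, where 2.20% to 13.3% of all genes were called. With a replicate block the members called were 6, 0 and 1 in the 3 comparisons and the other pathway genes 55, 0 and 5. Replicate numbers only name the mice, since deviations of same-numbered mice correlated at −0.04 to 0.03, −0.32 to 0.11 and −0.04 to 0.04, and 2, 0 and 2 of 4 mice correlated best with their own number. Differences near 0 changed sign: Tgfbr1 between LJP and Vehicle ran from −0.183 to 0.0867 when 1 mouse was left out (0.0867 without Vehicle mouse 2, 0.0675 without LJP mouse 2, 0.0106 without LJP mouse 4), Smad7 there was −0.102 without Vehicle mice 1 and 2, and Tgfb2 between LJP and Sham was 0.0136 with library size only and −0.113 to 0.0158 when 1 mouse was left out (0.0158 without LJP mouse 1). The cause of these changes was not tested. Depth limits Ltbp2 and Tgif1 in Sham, at 10 to 21 counts per mouse.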
